A study of Homo sapiens with 36 samples.

Results

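Wnt ligands and antagonists are described here through 10 genes chosen by name, out of 61471 identifiers measured in each of 36 RNA sequencing libraries. The genes encode 5 secreted ligands (WNT5A, WNT5B, WNT7A, WNT7B and WNT10A), 3 secreted antagonists or related proteins (DKK1, DKK3 and SFRP1), 1 receptor (FZD7) and 1 inhibitor that is itself switched on by the pathway (AXIN2). The libraries fell into 18 groups of 2. The ER-Src line derives from MCF-10A, human breast epithelial cells that are not transformed, and carries the v-Src oncoprotein fused to the hormone-binding part of the estrogen receptor. Tamoxifen (TAM) switches the fusion on, and ethanol (ETH) is the vehicle. ER-Src cells received a control siRNA (Ctrli) or an siRNA against YAP (YAPi), TAZ (TAZi), STAT3 (STAT3i) or JUNB (JUNBi), each under ETH and under TAM. The second line was MDA-MB-231, established from a breast cancer that lacks hormone receptors and HER2. Its set 1 held Ctrli, YAPi, TAZi, both siRNAs together (YAPi_TAZi) and an siRNA against the TEAD family (TEADi), and its set 2 held separate Ctrli libraries, JUNBi and STAT3i. The comparisons ask which genes depend on each factor when v-Src is active, when it is not, and in cancer cells.

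The submitters' treatment text, the same for all samples, also names AZD0530 (saracatinib, a Src inhibitor) beside tamoxifen, and does not say which libraries received it. The study's methods state that siRNA-treated cells received tamoxifen and AZD0530 together. They do not say which of their treatment times applied to RNA sequencing. The titles do not give how long TAM acted before RNA was taken. Each siRNA was a commercial pool of several oligonucleotides. The labels do not say whether the libraries of a group came from separate cultures, so p-values measure only the spread between these libraries, which may be technical. In bulk RNA, fewer cells of a kind and less RNA per cell cannot be told apart.

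Wnt proteins are secreted lipid-modified signals that bind Frizzled receptors. With the co-receptors LRP5 or LRP6 they stop the destruction of beta-catenin, which then works with TCF/LEF factors in the nucleus. Other Wnt proteins, WNT5A and WNT5B among them, act mostly through receptors such as ROR1 and ROR2 without beta-catenin. DKK1 blocks LRP5 and LRP6, SFRP1 binds Wnt proteins outside the cell, and AXIN2 rebuilds the complex that destroys beta-catenin. In breast epithelium, Wnt signalling is known for its part in the maintenance of basal progenitor cells.

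The libraries held 1411304 to 19161700 expected counts, which are RSEM estimates of the number of reads per gene. In ER-Src the range was 6419720 to 19161700. The epithelial and basal mammary markers chosen for this check were expressed in ER-Src (KRT5 at 1011.89 to 2622.3 TPM, a length-scaled share of all transcripts), while in MDA-MB-231 KRT5 reached at most 11.49 TPM in set 1 and 0 TPM in set 2. The other marker lists did not divide the lines one way. Of the epithelial markers, CDH1 was listed at 0 TPM in 6 of 10 set 1 and 6 of 6 set 2 libraries and reached 6.31 to 20.48 TPM in ER-Src, whereas KRT8 was higher in set 2 (481.67 to 695.62 TPM) than in ER-Src (30.07 to 104.18 TPM), as was KRT18 (541.29 to 745.45 against 75.67 to 181.82 TPM). Of the mesenchymal markers, VIM was higher in MDA-MB-231 (369.21 to 2590.78 TPM against 183.74 to 337.67 TPM in ER-Src) and CDH2 lower (at most 1.47 TPM against 2.13 to 6.76 TPM). Of the leukocyte markers PTPRC and CD3E were at or near 0 in both lines, and CD68 was detected in every library. Each targeted gene was lower under its own siRNA and was called in all cases but 2. JUNB under ETH gave a log2 fold change of -1.16 (DESeq2 adjusted p = 0.064). STAT3 in MDA-MB-231 set 2 gave -2.41 (SE 0.32) and received no adjusted p. Some targeted genes were also lower under another siRNA. JUNB was lower with STAT3i under TAM (log2 fold change -2.41, DESeq2 adjusted p = 2.5e-47) by more than with JUNBi under TAM (-2.03), and in set 1 WWTR1, the gene of TAZ, was lower with YAPi (-1.14) and TEADi (-0.89). In set 1 the library type was not shared by all groups. A chosen list of 6 RNAs without a poly(A) tail took 0.0028% and 0.0041% of the counts in the 2 controls. In the 8 knockdown libraries the list took 8.7116% to 11.7621%. The controls held 13456784 and 13534560 counts, and the knockdowns at most 2784605. The knockdown libraries were themselves of 2 kinds, with a difference between gene length and effective length of 48.0 bases in all 4 of replicate 1 and 74.6 bases in all 4 of replicate 2 (75.0 in the controls). In set 1, knockdown and library type therefore cannot be told apart.

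Several of the 10 genes differed between the cell lines, though not DKK1 in its presence, and the control libraries of the lines also differed in type. The 6 listed RNAs without a poly(A) tail took 9.4347% to 11.7024% of the counts in ER-Src libraries. In the MDA-MB-231 controls they took at most 0.0092%. In the controls, cell line and library type therefore cannot be told apart. In ER-Src only DKK1, SFRP1 and WNT5A reached 1 TPM, and each did so in 20 of 20 libraries. DKK1 ranged over these libraries from 20.43 TPM through a median of 84.875 to 217.98 TPM. SFRP1 ran from 13.4 through 28.805 to 39.38 TPM and WNT5A from 2.18 through 4.095 to 9.51 TPM. The other 7 genes stayed under 1 TPM in every ER-Src library. WNT5B reached at most 0.75 TPM, FZD7 0.42, AXIN2 0.33, WNT10A 0.3, WNT7B 0.22, DKK3 0.16 and WNT7A 0.13 TPM. In MDA-MB-231 other members were present. In its controls DKK1 was again present, WNT5B stood at 13.69 and 13.56 TPM in set 1 and 16.27 and 16.38 TPM in set 2, and WNT7B stood at 10.59 and 8.95 TPM in set 1 and 6.35 and 9.37 TPM in set 2. SFRP1 reached at most 0.27 TPM in any MDA-MB-231 library. WNT7A had 0 counts in all 16 of them. In GRCh38 WNT5B lies on chromosome 12 (1529891 to 1647212, plus strand) and WNT7B on chromosome 22 (45920366 to 45977162, minus strand). WNT7A lies on chromosome 3 (13816258 to 13880071, minus strand), WNT10A on chromosome 2 (218880852 to 218899581, plus strand) and DKK3 on chromosome 11 (11956207 to 12009769, minus strand).

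**Figure D1:**
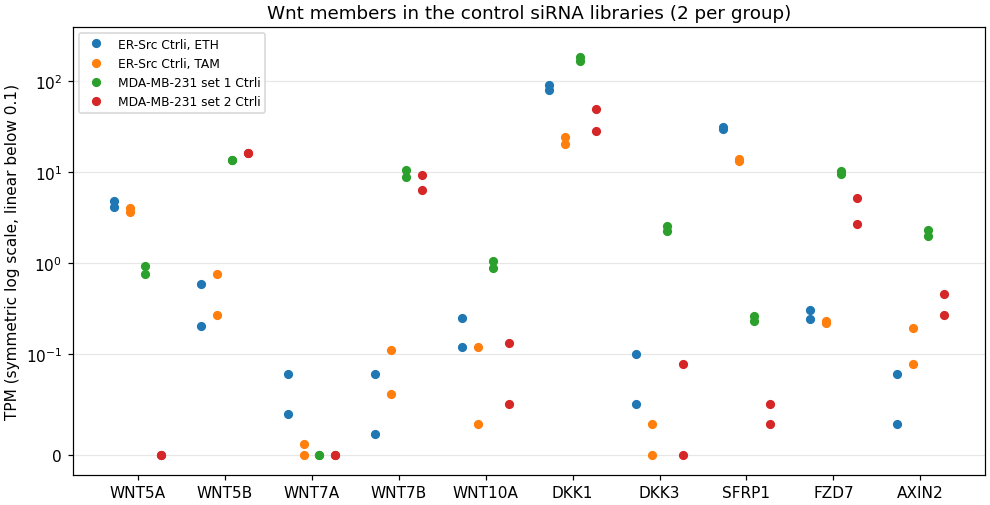
TPM (vertical axis, symmetric log scale) of the 10 genes in the control siRNA libraries, with a point for each of the 2 libraries per group. SFRP1 and WNT5A are higher in the ER-Src controls than in the MDA-MB-231 controls, and WNT5B, WNT7B and FZD7 are lower. In these controls cell line and library type cannot be told apart.

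Both secreted antagonists that reached 1 TPM in ER-Src were lower with TAM. DKK1 (ENSG00000107984.9) lies on chromosome 10 at 52314281 to 52318042, plus strand (GRCh38), and 10.2% of its exon bases are shared with the antisense gene PRKG1-AS1. It stood at 90.82 and 80.28 TPM in the Ctrli ETH libraries and at 20.43 and 24.69 TPM in the Ctrli TAM libraries. Both TAM libraries lay below both ETH libraries. On normalized counts the log2 fold change was -1.45 (SE 0.16, DESeq2 adjusted p = 1.8e-18), and the ratio of mean TPM was 0.264.

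SFRP1 (ENSG00000104332.11, chromosome 8, 41261962 to 41309473, minus strand) moved the same way. Its levels were 31.75 and 29.61 TPM under ETH and 13.4 and 13.88 TPM under TAM. The groups did not overlap, and the log2 fold change was -0.98 (SE 0.11, DESeq2 adjusted p = 7.5e-16). Both calls held in edgeR, with TMM size factors, with the filter on low counts, with a replicate block, and when any 1 of the 4 libraries was left out. Of all genes tested in this comparison 6.11% were called, and of the 6 Wnt members with an adjusted p these 2 were. On the TPM scale the median over 10001 genes moved by -0.33 (log2) between ETH and TAM, so that TPM ratios of single genes carry that shift.

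WNT5A (ENSG00000114251.13, chromosome 3, 55465715 to 55490539, minus strand) gave no call with TAM. It stood at 4.82 and 4.15 TPM under ETH and 4.04 and 3.62 TPM under TAM, against normalized counts of 386.7 and 382.7 under ETH and 403.7 and 429.8 under TAM. The direction thus depended on the scale, and the groups were apart on each. DESeq2 gave a log2 fold change of 0.13, with a 95% interval of -0.27 to 0.52.

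DKK1 had the widest range of TPM among the members in ER-Src, and the bases before its start are shown because the study concerns factors that bind DNA. The window chr10:52314031-52314280 (GRCh38.p14, plus strand, from RefSeq) covers the 250 bases before the RefSeq start. Capitals mark, from left to right, a TCF/LEF core on the minus strand, a TCF/LEF core on the plus strand, a TEAD match and a TATA match.
DKK1: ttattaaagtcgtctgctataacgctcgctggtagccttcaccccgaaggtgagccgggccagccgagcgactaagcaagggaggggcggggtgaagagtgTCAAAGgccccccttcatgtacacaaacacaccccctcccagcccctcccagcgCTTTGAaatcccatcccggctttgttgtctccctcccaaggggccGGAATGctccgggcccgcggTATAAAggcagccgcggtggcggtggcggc
Both strands were searched for 5 motifs. The letters GGAATG stood for TEAD, the DNA-binding partner of YAP and TAZ. AP-1, which JUNB is part of, was searched as TGANTCA. The STAT motif was TTCNNNGAA. For TCF/LEF, the factors that work with beta-catenin, the letters were CTTTGA. The TATA box was searched as TATAAA, and it and the TCF/LEF motif were added after the windows had been read. Among 35116 RefSeq windows of the same length, 11.9% held the TEAD letters, 6.6% the AP-1 letters, 6.6% the STAT letters, 11.2% the TCF/LEF letters and 10.7% the TATA letters. The TEAD match of DKK1 begins at position -50 and the TCF/LEF matches at -149 and -95, counted from the start. A match is a run of letters and not a measured site. WNT5A has 2 RefSeq windows. The one at chr3:55481399-55481648 (minus strand), inside the gene and clear of annotated exons, is shown because WNT5A was called with TAZi and YAPi under ETH. It held no match to any of the 5 motifs.
WNT5A: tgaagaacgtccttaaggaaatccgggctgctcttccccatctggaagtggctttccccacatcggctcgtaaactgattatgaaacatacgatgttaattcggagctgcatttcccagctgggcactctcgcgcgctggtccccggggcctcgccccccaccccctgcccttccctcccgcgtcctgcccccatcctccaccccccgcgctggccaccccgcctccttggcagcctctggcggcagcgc
Of the 10 genes, 5 had a window in the table used (7 windows in all), and windows for WNT7B, DKK3, SFRP1, AXIN2 and FZD7 were not used here.

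Under TAM the knockdown of STAT3 gave the largest difference in DKK1 among the 4 siRNAs tested. DKK1 stood at 105.74 and 106.88 TPM in STAT3i, against 20.43 and 24.69 TPM in Ctrli. The values of STAT3i under TAM lay above both Ctrli ETH libraries. Against Ctrli TAM the log2 fold change was 1.66 (SE 0.16, DESeq2 adjusted p = 1.7e-23), and mean TPM differed by a factor of 4.71. SFRP1 rose as well, to 29.66 and 28.44 TPM against 13.4 and 13.88 TPM in Ctrli. Its log2 fold change was 0.77 (SE 0.13, DESeq2 adjusted p = 4e-08). Both calls held in every alternative run. Of all genes tested 8.09% were called, and of the 6 members with an adjusted p these 2 were. The comparison of TAM with ETH used the same Ctrli TAM libraries, so the fall with TAM and the rise with STAT3i are not independent. The STAT3i and JUNBi libraries also differed from Ctrli in the difference between gene length and effective length (49.0 bases against 49.5), and the median TPM ratio over 10001 genes was 0.42 (log2) for STAT3i under TAM. JUNB, too, was lower in the STAT3i libraries under TAM. The part of these differences in the result was not tested.

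The other 3 knockdowns under TAM gave smaller estimates for DKK1 and SFRP1, and the differences between siRNAs were not tested. With JUNBi, SFRP1 stood at 27.31 and 21.27 TPM, above both controls, with a log2 fold change of 0.57 (SE 0.13, DESeq2 adjusted p = 0.00022). It was the only call among 4 members with an adjusted p, against 6.71% of all genes. The call was lost in edgeR (adjusted p = 0.045) and without any 1 of the 4 libraries (DESeq2 adjusted p from 0.014 without Ctrli TAM replicate 2 to 0.16 without Ctrli TAM replicate 1). With YAPi, SFRP1 stood at 20.27 and 17.25 TPM, with a log2 fold change of 0.41 (SE 0.12, DESeq2 adjusted p = 0.0074), the only call among 4 members where 10.9% of all genes were called. That call was lost in edgeR (adjusted p = 0.015), with the filter on low counts (0.011), with the replicate block (0.11) and without any 1 of the 4 libraries (0.093 to 0.4). DKK1 was above both controls in all 3 groups without reaching the threshold. It stood at 35.67 and 33.69 TPM in YAPi (log2 fold change 0.47, 95% interval 0.12 to 0.82), at 33.36 and 38.3 TPM in TAZi (0.40, interval 0.06 to 0.73) and at 51.27 and 36.41 TPM in JUNBi (0.45, interval 0.10 to 0.80). TAZi gave 0 calls among 4 members in DESeq2 and 0 in edgeR, with 3 members at an unadjusted p under 0.05 in each tool, where 3.53% of all genes were called.

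**Figure D2:**
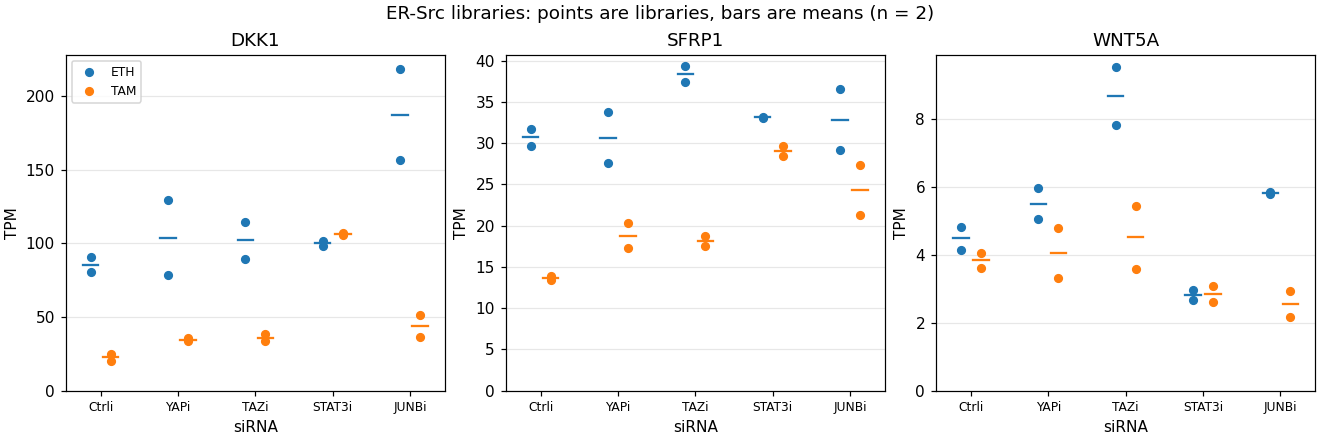
TPM of DKK1, SFRP1 and WNT5A in the 20 ER-Src libraries by siRNA (horizontal axis), with ETH in blue and TAM in orange. Points are libraries and bars are means of 2. The Ctrli TAM libraries are the lowest for DKK1 and SFRP1, and DKK1 in STAT3i is 105.74 and 106.88 TPM under TAM against 101.39 and 98.34 TPM under ETH.

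Without v-Src activation, DKK1 was called with JUNBi and WNT5A with TAZi and YAPi. With JUNBi under ETH, DKK1 stood at 217.98 and 156.69 TPM, the highest values in ER-Src, against 90.82 and 80.28 TPM in Ctrli. DESeq2 gave a log2 fold change of 1.10 (SE 0.22, DESeq2 adjusted p = 3.9e-05), 1 call among 6 members where 2.76% of all genes were called. It was lost in edgeR (adjusted p = 0.067) and without either control library (0.45 without Ctrli ETH replicate 1 and 0.23 without replicate 2). The JUNBi ETH libraries had the widest spread of all groups between replicates (SD of the log2 ratio 0.685 over genes, against 0.25 in Ctrli ETH), and JUNB itself was not called there. DKK1 was not called with the other siRNAs under ETH. Its log2 fold change was 0.43 with YAPi (95% interval 0.11 to 0.74), 0.38 with TAZi (0.15 to 0.61) and 0.24 with STAT3i (-0.08 to 0.56). The YAPi value rested on single libraries. Without YAPi replicate 1 it was 0.11 (DESeq2 adjusted p = 0.84), and without YAPi replicate 2 it was 0.69 and called (adjusted p = 5.9e-05).

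WNT5A was higher with TAZi under ETH, on both scales. It stood at 7.81 and 9.51 TPM in TAZi and at 4.82 and 4.15 TPM in Ctrli, with no overlap. On the log2 scale the change was 1.08 (SE 0.17, DESeq2 adjusted p = 3.6e-08), a call that held in every alternative run. It was 1 call among 4 members, where 5.53% of all genes were called. With YAPi under ETH, WNT5A stood at 5.97 and 5.04 TPM, with a log2 fold change of 0.71 (SE 0.18, DESeq2 adjusted p = 0.0012), 1 call among 7 members where 11.4% of all genes were called. That call was lost with the replicate block (0.02) and without any 1 of the 4 libraries (0.012 to 0.2). With JUNBi under ETH the values were 5.78 and 5.83 TPM and the log2 fold change 0.77 (DESeq2 adjusted p = 0.072). Leaving out 1 library at a time gave estimates of 0.67 to 0.87, and edgeR gave 0.76 (adjusted p = 0.16). STAT3i gave values on the other side of the controls, 2.66 and 2.95 TPM under ETH and 2.62 and 3.09 TPM under TAM. Neither was called, with log2 fold changes of -0.36 (95% interval -0.83 to 0.11) and -0.38 (-0.80 to 0.04). STAT3i under ETH gave 0 calls among 9 members in DESeq2 and 0 in edgeR, with 0 and 1 members at an unadjusted p under 0.05, where 0.201% of all genes were called. Under TAM, WNT5A stood at 5.44 and 3.59 TPM with TAZi (log2 fold change 0.59, DESeq2 adjusted p = 0.031), at 4.78 and 3.32 TPM with YAPi (0.31, adjusted p = 0.31) and at 2.94 and 2.18 TPM with JUNBi (-0.25, adjusted p = 0.51).

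**Figure D3:**
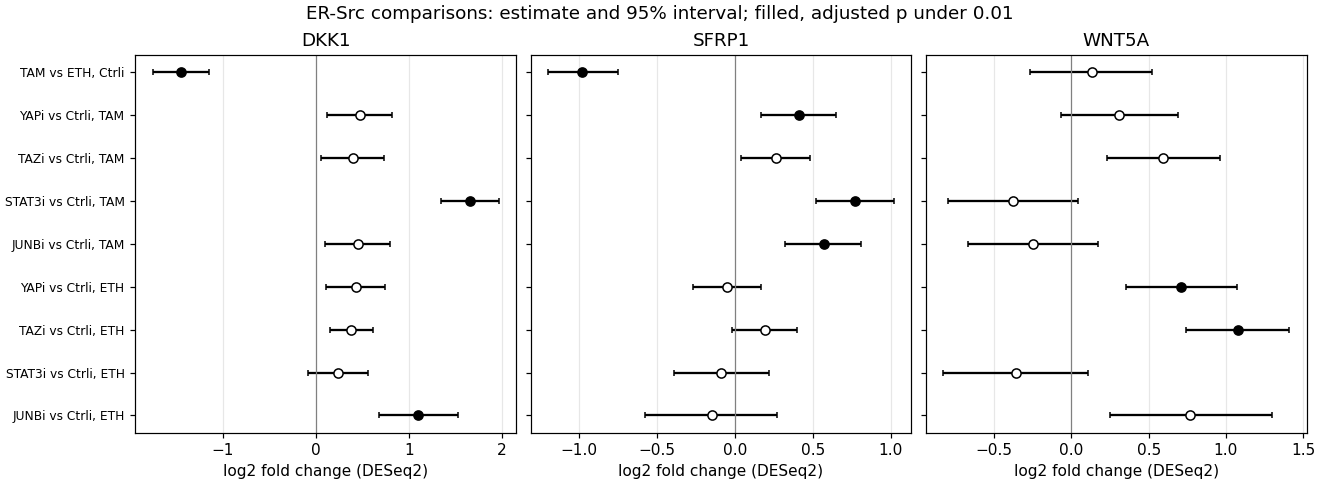
DESeq2 log2 fold changes (horizontal axes, differing between panels) with 95% intervals for DKK1, SFRP1 and WNT5A in the 9 ER-Src comparisons, with filled points for adjusted p under 0.01. The knockdown comparisons under one treatment share their Ctrli libraries. For DKK1 the filled points are TAM against ETH at -1.45, STAT3i under TAM at 1.66 and JUNBi under ETH at 1.10.

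Whether a knockdown acted differently under TAM and ETH was tested directly as an interaction. With STAT3i the effect on DKK1 was larger under TAM by 1.40 on the log2 scale (SE 0.22, DESeq2 adjusted p = 1.2e-07), and that on SFRP1 by 0.84 (SE 0.18, DESeq2 adjusted p = 0.00052). These were 2 calls among 7 members, where 1.40% of all genes were called. STAT3 itself had a log2 fold change of -2.66 with STAT3i under TAM and -1.88 under ETH. The SD of the log2 ratio between replicates was 0.275 in STAT3i TAM and 0.485 in STAT3i ETH. The part of these differences in the interactions was not tested. SFRP1 stood at 33.02 and 33.2 TPM with STAT3i under ETH, beside 31.75 and 29.61 TPM in Ctrli. In edgeR neither interaction was called (adjusted p = 0.011 for DKK1 and 0.037 for SFRP1). The SFRP1 interaction was also lost without Ctrli TAM replicate 1 (0.024) and without Ctrli ETH replicate 2 (0.019). No member was called by DESeq2 or edgeR in the interactions of the other siRNAs. With YAPi there were 0 of 7 members against 0.496% of all genes, with 1 member at an unadjusted p under 0.05 in DESeq2 and 4 in edgeR. TAZi gave 0 of 3 members against 1.64% of all genes, with 1 at an unadjusted p under 0.05 in each tool. JUNBi gave 0 of 7 against 0.287%, with 3 in DESeq2 and 4 in edgeR. Its estimate for DKK1 was -0.68 (95% interval -1.18 to -0.18, DESeq2 adjusted p = 0.4). Those for SFRP1 and WNT5A were 0.69 (95% interval 0.27 to 1.12) and -1.05 (-1.63 to -0.46). Both passed without JUNBi ETH replicate 2 (adjusted p = 0.0034 and 0.0049). SFRP1 also passed without JUNBi ETH replicate 1 (0.0042) and with the replicate block (0.0046).

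Ordered by mean TPM over the 10 ER-Src groups, DKK1 ran from JUNBi ETH at 187 TPM to Ctrli TAM at 22.6 TPM. The libraries of STAT3i TAM, YAPi ETH, TAZi ETH and STAT3i ETH overlapped their neighbours in that order, and so did JUNBi TAM, TAZi TAM and YAPi TAM. SFRP1 ran from TAZi ETH at 38.4 TPM to Ctrli TAM at 13.6 TPM, and from STAT3i ETH through JUNBi ETH, Ctrli ETH and YAPi ETH to STAT3i TAM each group overlapped the next, as did YAPi TAM and TAZi TAM. WNT5A ran from TAZi ETH at 8.66 TPM to JUNBi TAM at 2.56 TPM. Its STAT3i TAM, STAT3i ETH and JUNBi TAM groups overlapped in turn and lay below every library of the other 7 groups.

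The remaining 7 genes were near the limit of detection in ER-Src. WNT5B had 3 to 34 counts per library, the most in STAT3i TAM (34 and 29 counts, or 0.59 and 0.56 TPM, against 11 and 11 counts, or 0.27 and 0.75 TPM, in Ctrli TAM). FZD7 had 11 to 42.13 counts, and stood at 0.1 and 0.11 TPM with YAPi under TAM beside 0.23 and 0.22 TPM in Ctrli (log2 fold change -1.06, 95% interval -2.65 to 0.53). AXIN2, used as a readout of beta-catenin activity, had 2.74 to 19 counts and stood at 0.08 and 0.03 TPM under ETH and 0.19 and 0.09 TPM under TAM in Ctrli. Its log2 fold change with TAM was 1.76 with an interval of -0.71 to 4.22. WNT7B had 1 to 20 counts, the most in YAPi ETH (17.25 and 20, beside 3 and 2 in Ctrli ETH, log2 fold change 2.60, DESeq2 adjusted p = 0.14). WNT10A had 1 to 22 counts, WNT7A 0 to 8 and DKK3 0 to 5. None of these 7 genes was called in any ER-Src comparison, and outside the interactions the SE of their log2 fold changes was at least 0.63. The number of members given an adjusted p by DESeq2 was 3 to 9 of 10 across the ER-Src comparisons.

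Other genes of the pathway, 80 on a list of ligands, receptors, antagonists, the R-spondin arm, secretion, the cytoplasmic complex, nuclear factors and planar polarity, gave 0 to 3 calls in each ER-Src comparison. With TAM 0 of the 48 with an adjusted p were called in DESeq2, beside 6.11% of all genes, and 0 in edgeR. At an unadjusted p under 0.05 there were 5 in DESeq2 and 11 in edgeR. The median log2 fold change of the 48 was 0.12, against -0.01 for all genes tested. Under TAM, 1 rose (ROR1) and 2 fell (the receptors FZD2, by 1.76, and PTK7, by 0.56 on the log2 scale) of 45 with YAPi, beside 10.9% of all genes. With TAZi 2 of 44 rose (the receptors FZD4, 1.5, and ROR1), beside 3.53% of all genes. With STAT3i 1 of 45 rose (LGR4, a receptor for R-spondins, 0.84), beside 8.09%, and with JUNBi 2 of 44 fell (the co-receptor LRP5, -0.66, and DVL1, -0.93), beside 6.71%. Under ETH, 3 of 47 rose with YAPi (ROR1, the kinase CSNK1A1, 0.34, and the cadherin CELSR1, 0.97), beside 11.4% of all genes, and 3 of 43 with TAZi (ROR1, the receptor FZD8, 1.25, and CELSR3, 1.3), beside 5.53%. Genes named here other than ROR1 were each called in 1 ER-Src comparison and were chosen after their values were seen. In the 4 interactions 0 of 12 to 48 listed genes were called by DESeq2 or edgeR, where DESeq2 called 0.287% to 1.64% of all genes. At an unadjusted p under 0.05 there were 1 to 7 listed genes in DESeq2 and 5 to 15 in edgeR. STAT3i (51 tested) and JUNBi (49 tested) under ETH gave 0 calls in DESeq2, beside 0.201% and 2.76% of all genes, and 0 in edgeR. At an unadjusted p under 0.05 there were 0 and 2 listed genes in DESeq2 and 3 and 4 in edgeR. ROR1, a receptor tyrosine kinase for WNT5A, was called in all 4 YAPi and TAZi comparisons of ER-Src. It stood at 0.98 and 0.87 TPM in Ctrli under TAM, at 2.47 and 1.92 TPM in YAPi and at 1.81 and 2.05 TPM in TAZi. Neither knockdown overlapped the controls, which both comparisons share. The log2 fold changes were 1.5 (SE 0.27, DESeq2 adjusted p = 8.2e-07) and 1.11 (SE 0.28, adjusted p = 0.003). Under ETH, ROR1 was 1.4 and 0.93 TPM in Ctrli, 2.7 and 2.2 TPM in YAPi (1.53, DESeq2 adjusted p = 4.4e-07) and 2.54 and 2.09 TPM in TAZi (1.28, adjusted p = 0.0005).

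Over the 20 ER-Src libraries, the genes whose log2 normalized counts followed DKK1 most closely among 10001 genes were CAV1 (Pearson r = 0.959), the main protein of caveolae, and THBS1 (r = 0.948), a secreted matrix protein. SFRP1 was followed by TFCP2L1 (0.908) and TEX2 (0.906), and WNT5A by SNX29 (0.888) and PTGFR (0.877), a prostaglandin receptor. DKK1 and SFRP1 had r = 0.849 with each other. WNT5A had r = 0.249 with DKK1 and 0.176 with SFRP1. The libraries share groups, depth and treatment, so these values describe likeness only.

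In MDA-MB-231 set 1 the direction of some members depended on the scale. Over 5863 genes the median log2 TPM ratio of knockdown to control lay between -1.34 and -1.25, and TMM size factors moved the median log2 fold change by -0.10 to -0.12. The calls, out of 9 members with an adjusted p, were 3 for YAPi (24.1% of all genes), 4 for TAZi (32.3%), 5 for YAPi_TAZi (35.5%) and 2 for TEADi (28.1%). WNT7B, a ligand, was lower in all 8 knockdown libraries on both scales. It stood at 10.59 and 8.95 TPM in Ctrli, 0.97 and 1.18 in YAPi, 1.01 and 2.17 in TAZi, 2.52 and 2.32 in YAPi_TAZi and 2.02 and 2.84 TPM in TEADi. The log2 fold changes were -2.29 (DESeq2 adjusted p = 3.3e-05), -1.96 (6.2e-05), -1.25 (0.00021) and, not called, -0.79 (0.1). The first of these was lost without either control (0.072 without replicate 1 and 0.032 without replicate 2), the second in edgeR (0.012), without either control (0.12 and 0.059) and without TAZi replicate 2 (0.017), and the third in edgeR (0.014), with the replicate block (0.011) and without any 1 of the 4 libraries (0.023 to 0.35). Set against the other set 1 knockdowns, none of the 4 was called. The log2 differences were -0.99 in YAPi (DESeq2 adjusted p = 0.22), -0.51 in TAZi (0.61), 0.45 in YAPi_TAZi (0.66) and 1.05 in TEADi (0.12).

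DKK1 divided the knockdowns of set 1. It stood at 169.44 and 183.66 TPM in Ctrli, 214.73 and 478.65 TPM in YAPi, 175.28 and 399.36 in TAZi, 150.35 and 325.55 in TEADi and 30.81 and 64.84 TPM in YAPi_TAZi. The YAPi_TAZi libraries lay below all 8 others, whereas TAZi and TEADi overlapped the controls in TPM. On normalized counts the log2 fold changes against Ctrli were 2.22 in YAPi (SE 0.12, DESeq2 adjusted p = 3.9e-78), 2.00 in TAZi (SE 0.10, 2.8e-84), 1.80 in TEADi (SE 0.13, 4.7e-44) and -0.71 in YAPi_TAZi (SE 0.13, 3.2e-07). The last was not called in edgeR (0.011) or without either control (0.079 without replicate 1 and 0.11 without replicate 2).

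Each set 1 knockdown was also set against the mean of the other 3, whose libraries of the same replicate number shared its length difference, with the replicate number as a block. DKK1 in YAPi_TAZi was lower than the mean of the other 3, with a log2 difference of -2.72 (SE 0.10, DESeq2 adjusted p = 2.8e-145). Its normalized counts of 210 and 261.8 lay below the 1240 to 1920 of the other knockdowns. Those were themselves above the controls (372.1 and 386.6), so this difference does not measure a fall below Ctrli. The differences of YAPi (1.17), TAZi (0.91) and TEADi (0.63) from the mean of the others were called too, but that mean includes YAPi_TAZi, and the libraries of these 3 groups overlapped each other in TPM. In normalized counts they did not overlap, at 1658 and 1917 in YAPi, 1465 and 1644 in TAZi and 1240 and 1452 in TEADi. In these 4 comparisons 11.0%, 10.7%, 10.5% and 11.6% of all genes were called for YAPi, TAZi, YAPi_TAZi and TEADi. Members called were 2 in YAPi, 1 in TAZi, 2 in YAPi_TAZi and 1 in TEADi.

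FZD7, a Frizzled receptor (ENSG00000155760.2, chromosome 2, 202033855 to 202038441, plus strand), was at 10.38 and 9.54 TPM in Ctrli and 11.45 and 16.78 TPM in YAPi_TAZi. In YAPi_TAZi it was higher on both scales, with a log2 fold change of 1.92 (SE 0.14, DESeq2 adjusted p = 1.6e-43), and it exceeded the other knockdowns by 0.84 (SE 0.16, adjusted p = 2.9e-06). In YAPi (5.38 and 8.59 TPM), TAZi (7.07 and 11.24 TPM) and TEADi (4.87 and 7.57 TPM) the called log2 fold changes of 1.02, 1.36 and 0.89 had the opposite sign to the ratio of mean TPM (log2 -0.51, -0.12 and -0.68). The YAPi call was lost with the replicate block (0.024), without either control (0.1 and 0.15) and without YAPi replicate 2 (0.019). The TEADi call was lost in edgeR (0.011), with the block (0.065) and without any 1 of the 4 libraries (0.012 to 0.25). Against the other knockdowns FZD7 was not called in YAPi (-0.39, DESeq2 adjusted p = 0.095), TAZi (0.10, 0.79) or TEADi (-0.54, 0.014).

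AXIN2 (ENSG00000168646.12, chromosome 17, 65528563 to 65561648, minus strand) was at 2.32 and 1.96 TPM in Ctrli, 4.74 and 5.63 TPM in YAPi_TAZi and 1.09 and 1.24 TPM in YAPi. In TPM these groups lay on either side of the controls. Against Ctrli, YAPi_TAZi gave a log2 fold change of 1.89 (SE 0.29, DESeq2 adjusted p = 1.1e-09). That call was lost without either control (estimates 1.97 and 1.77) and without YAPi_TAZi replicate 2 (1.83). The difference of YAPi_TAZi from the other knockdowns, which is another question, was 1.00 (DESeq2 adjusted p = 0.062). TAZi gave 1.51 against Ctrli (DESeq2 adjusted p = 2.5e-05), and its 1.53 and 4.2 TPM overlapped the controls. The TAZi call was lost with TMM size factors (0.01), with the block (0.086) and without any 1 of the 4 libraries (estimates 1.34 to 1.58). From the other knockdowns TAZi differed by 0.48 (adjusted p = 0.5). TEADi gave 1.45 against Ctrli (adjusted p = 0.016) at 1.83 and 4.23 TPM. It passed with the filter on low counts (0.0013), with a local dispersion trend (0.0001) and without TEADi replicate 1 (estimate 1.67). From the other knockdowns TEADi differed by 0.38 (adjusted p = 0.62). YAPi gave -0.21 against Ctrli (0.12 without YAPi replicate 1), and -1.85 against the other knockdowns (SE 0.47, adjusted p = 0.0013), with 6.27 and 12.04 counts. Exons of a second gene on the same strand (ENSG00000266076) cover 25.3% of the exon bases of AXIN2, so that its count is uncertain.

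**Figure D4:**
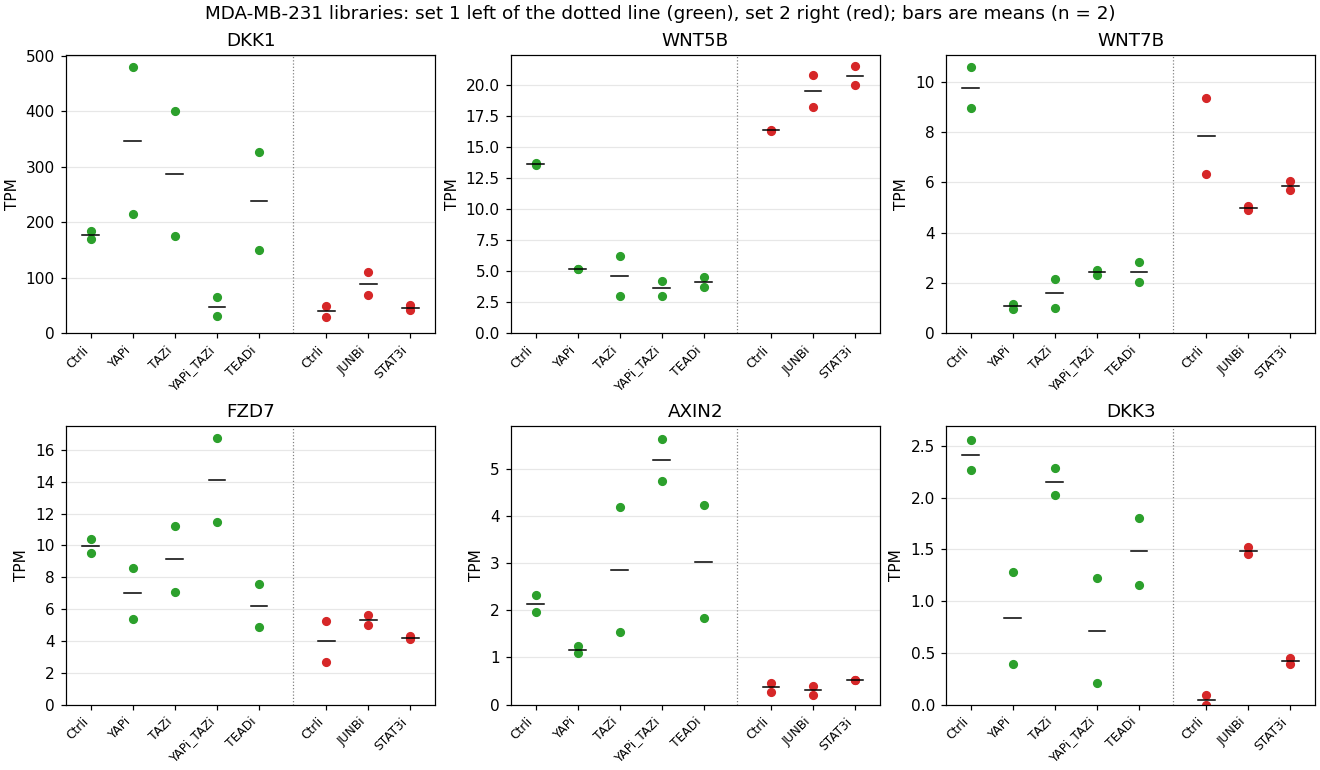
TPM of 6 members in the MDA-MB-231 libraries, with set 1 in green and set 2 in red. Points are libraries and bars are means of 2. DKK1 is lowest within set 1 in YAPi_TAZi at 30.81 and 64.84 TPM, while FZD7 and AXIN2 are highest there.

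WNT5A was low in MDA-MB-231. The set 1 controls had 42 and 52 counts (0.76 and 0.92 TPM), and the knockdowns had 0 and 0 in YAPi, 0 and 1 in TAZi, 0 and 0 in YAPi_TAZi and 2 and 0 in TEADi. Against a floor of 3 counts per library, WNT5A was at least 2.19-fold lower in YAPi and at least 1.73-fold lower in YAPi_TAZi. The ratio to Ctrli was 0.0714 in TAZi (95% exact counting interval 0.00179 to 0.407) and 0.171 in TEADi (0.0205 to 0.637). These intervals cover counting error only. DESeq2 called YAPi_TAZi (adjusted p = 0.0069) and not YAPi (0.02), and the first call was lost in edgeR (0.029), with the filter (0.012), with the block (0.036) and without either YAPi_TAZi library (0.074 and 0.13). YAPi passed with the filter (0.0092) and with a local dispersion trend (0.0041). WNT5B was not called in any of the 4 comparisons. Its log2 fold changes lay between -0.66 and 0.23, while its TPM was 13.69 and 13.56 in Ctrli and between 3.01 and 6.21 in the knockdowns. DKK3, WNT10A and SFRP1 had at most 9, 2 and 4 counts in the knockdown libraries and were not called.

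**Figure D5:**
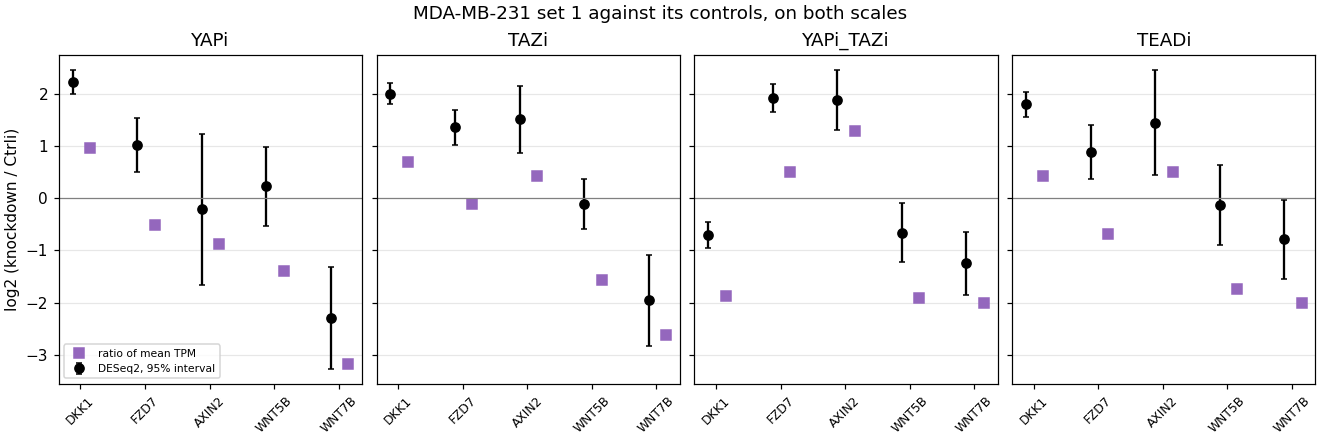
Difference between each set 1 knockdown and Ctrli on the log2 scale, as the DESeq2 estimate with its 95% interval (black) and as the ratio of mean TPM (purple squares). FZD7 lies above 0 in black and below 0 in purple for YAPi, TAZi and TEADi, while WNT7B lies below 0 on both scales in all 4 knockdowns.

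Among the other Wnt genes of the list, set 1 gave 7 higher and 10 lower of 50 with YAPi (24.1% of all genes called), 9 and 12 of 51 with TAZi (32.3%), 15 and 11 of 54 with YAPi_TAZi (35.5%) and 8 and 8 of 49 with TEADi (28.1%). These comparisons are the ones in which knockdown and library type cannot be told apart. The median log2 fold change of the list was between -0.18 and 0.07, against -0.01 to 0.06 for all genes tested. ROR1 rose in YAPi (1.45, DESeq2 adjusted p = 1.5e-09) and TAZi (0.98, adjusted p = 8.2e-05) on normalized counts. It was not called in YAPi_TAZi (0.41, DESeq2 adjusted p = 0.077) or TEADi (-0.07, adjusted p = 0.9). In TPM it stood at 9.88 and 8.24 in Ctrli, 7.48 and 10.67 in YAPi and 6.05 and 6.9 in TAZi, so that YAPi overlapped the controls and TAZi lay below them.

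In MDA-MB-231 set 2, where all 6 libraries were of 1 type, neither siRNA gave a call among the members. JUNBi gave 0 of 4 members with an adjusted p in DESeq2 and 0 in edgeR, where 3.99% of all genes were called, with 2 and 3 members at an unadjusted p under 0.05. STAT3i gave 0 of 2 in DESeq2 and 0 in edgeR, where 0.237% were called, with 0 members at an unadjusted p under 0.05 in either tool. DKK1 stood at 49.67 and 28.51 TPM in Ctrli, 69.11 and 109.4 TPM in JUNBi and 41.38 and 50.56 TPM in STAT3i. Both JUNBi libraries were above the controls. DESeq2 estimated 0.44 in JUNBi (95% interval -0.02 to 0.90) and 0.02 in STAT3i (-0.46 to 0.50). WNT7B stood at 6.35 and 9.37 TPM in Ctrli and 4.91 and 5.08 TPM in JUNBi. Its log2 fold change was -0.97 (DESeq2 adjusted p = 0.054, edgeR adjusted p = 0.14). The estimate was -1.31 without Ctrli replicate 3 and -0.88 without JUNBi replicate 2. DKK3, a divergent member of the Dickkopf family, had 1 and 0 counts in Ctrli, 37 and 15 in JUNBi and 6 and 5 in STAT3i. DESeq2 gave it no adjusted p, and the ratio of JUNBi to Ctrli was 27.6 with an exact counting interval of 4.74 to 1110. Exons of USP47 on the opposite strand cover 47.5% of the exon bases of DKK3, and whether counting used strand is not given in the sources used here. Of the Wnt list, 0 of 19 genes were called with JUNBi and 0 of 10 with STAT3i, by DESeq2 or edgeR, with 3 and 4 at an unadjusted p under 0.05 in DESeq2 and 5 and 5 in edgeR.

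The control libraries of both MDA-MB-231 sets can be set beside each other. Set 1 controls had 42 and 52 counts of WNT5A and set 2 controls 0 and 0. DKK1 stood at 169.44 and 183.66 TPM in set 1 and at 49.67 and 28.51 TPM in set 2, and AXIN2 at 2.32 and 1.96 against 0.46 and 0.27 TPM. WNT5B (13.69 and 13.56 against 16.27 and 16.38 TPM) lay closer together. No test was made, since the sets were normalized separately.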

How the data were processed

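RNA was measured in 36 libraries of 2 human cell lines. The groups and replicate numbers come from the sample titles. Per the study's methods, libraries were built with the TruSeq Ribo Profile kit, and the authors used STAR with the transcriptome of GENCODE version 30 (hg38) for alignment and RSEM for quantification. Versions of these tools are not given in the sources used here. The methods name no other kit. The 6 listed RNAs without a poly(A) tail took at most 0.0112% of the counts in the set 1 controls and in set 2. In all other libraries they took at least 8.7116%. Whether the kit was the same for all libraries was not tested. The authors deposited, per library, expected counts (estimated reads per gene, not normalized, with reads that fit several genes divided among them) and TPM, which is scaled to gene length and to a fixed total. Symbols and coordinates were taken from GENCODE version 44 (GRCh38), which matched 93.1% of 60725 Ensembl genes.

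Expected counts were rounded and tested with DESeq2 1.42.0 (R 4.3.3, default settings, no shrinkage), in a separate run per comparison over all Ensembl genes, following the study's methods. A gene with a Benjamini-Hochberg adjusted p under 0.01 was called. Intervals are 95% Wald intervals. Normalized counts printed per library were scaled over all libraries of a cell line or set. For YAPi_TAZi in set 1 the default dispersion trend could not be fitted and DESeq2 used a local trend, as in the comparisons among set 1 knockdowns. Simulated data were used to test the DESeq2 and edgeR fits of TAM against ETH, YAPi under TAM and the YAPi interaction. They were also used for YAPi in set 1 and JUNBi in set 2, and for no other comparison. The members and lists were chosen with earlier results of these data known. The named genes are the 10 members, other Wnt genes called in at least 3 of 8 ER-Src knockdown comparisons or with TAM (ROR1 alone met this), the targeted genes, and the 2 genes with the highest Pearson r for each member whose normalized counts averaged 100 or more in ER-Src. Other Wnt genes named in ER-Src were added after their values were seen.

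Alternatives were edgeR 4.0.16 (quasi-likelihood test, TMM, mean count of at least 1), TMM size factors in DESeq2, a filter at a mean count of 10, the replicate number as a block, the other set 1 knockdowns as reference with that block, leaving out each library in turn, and a local dispersion trend in set 1, which was chosen after seeing the data.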

Additional observations from a re-analysis of the deposited data

Results flagged for a closer look

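The effect of STAT3i on DKK1 differed between TAM and ETH by 1.40 on the log2 scale (SE 0.22, DESeq2 interaction test, adjusted p = 1.2e-07). The log2 fold change was 1.66 under TAM and 0.24 under ETH, and both STAT3i libraries lay above both controls in normalized counts under each treatment. The effect of STAT3i on SFRP1 differed by 0.84 (SE 0.18, adjusted p = 0.00052), from 0.77 under TAM and -0.09 under ETH. edgeR did not call either difference (adjusted p = 0.011 and 0.037). With 2 libraries per group, no group was examined for single libraries that stand apart.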

How the results depend on the processing

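The number of Wnt members called was within 1.5 times the main number in 13 of 19 comparisons with edgeR, 19 of 19 with TMM size factors, 18 of 19 with the filter on low counts and 12 of 17 with the replicate block. With edgeR it was 0 for YAPi under TAM, JUNBi under TAM, JUNBi under ETH and the STAT3i interaction, 2 for YAPi_TAZi and 1 for TEADi. The filter gave 0 for YAPi under TAM. The block gave 0 for YAPi under TAM and under ETH, 1 for the JUNBi interaction, 3 for YAPi_TAZi and 1 for TEADi. With the other set 1 knockdowns as reference the numbers were 1 for TAZi, 2 for YAPi_TAZi and 1 for TEADi. That reference asks how a knockdown differs from the other knockdowns and not from Ctrli, so its sign can differ without a conflict. By it FZD7 was at -0.39 in YAPi and -0.54 in TEADi, and WNT7B at 0.45 in YAPi_TAZi. AXIN2 in set 1 YAPi ran from -0.76 to 0.12 when 1 library was left out, with the sign turned without YAPi replicate 1. A local dispersion trend kept all 4 set 1 numbers within that limit. The number of genes called over the whole table moved by more than 1.5 times in 13 of 19 comparisons with edgeR (from 898 to 86 for JUNBi under TAM and from 420 to 28 for JUNBi under ETH, for example) and in 11 of 17 with the block.

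Leaving out 1 library at a time gave 0 for YAPi under TAM and 0 for JUNBi under TAM (main number 1 each), 0 to 1 for YAPi under ETH, 0 to 2 for JUNBi under ETH, 1 to 2 for the STAT3i interaction and 0 to 2 for the JUNBi interaction. In set 1 it gave 1 to 3 for YAPi, 2 to 3 for TAZi, 1 to 3 for YAPi_TAZi and 1 to 2 for TEADi, and in set 2 0 to 1 for JUNBi. A group left with 1 library was assumed to vary like the other group of the fit. The cause of these changes was not tested.

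The replicate numbers were not taken to pair the libraries, since each comparison has only 2 pairs and the labels do not say that a number marks a shared culture. The correlation of replicate differences between the groups compared ran from -0.076 to 0.413 over genes. The block ended the calls of SFRP1 (YAPi under TAM), WNT5A (YAPi under ETH and YAPi_TAZi), WNT7B (YAPi_TAZi), FZD7 (YAPi and TEADi in set 1) and AXIN2 (TAZi), gave a call of SFRP1 in the JUNBi interaction, and changed no other call of a member named. No paired analysis was possible because set 2 controls and knockdowns share no replicate numbers, in that set only. With 2 libraries per group, the absence of a call does not show that a member did not change, and 7 of the 10 genes had low counts in ER-Src.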
